A study of Ovis aries with 15 samples.

Results

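Complement and coagulation genes were taken as the rows of the deposited expression table whose KEGG annotation names the pathway "complement and coagulation cascades", and 123 of the 25592 genes in the table met this rule. Their RNA was measured by poly(A) RNA sequencing of kidney from Ovis aries, in male crossbred Dorper and Small-tailed Han sheep aged 4 months. The CON group received the basal diet, the AFB1 group received the same diet with 500 µg of aflatoxin B1 in each kg of dry feed, and for the AFB1_CUR group this AFB1 diet was supplemented with 800 mg of curcumin in each kg. Feeding lasted 21 days, each group held 6 sheep, and 5 sheep per group had a library. Aflatoxin B1 (AFB1) is a mould toxin of feed that is activated and cleared mainly in the liver and excreted in part by the kidney, and curcumin (CUR) is the yellow polyphenol of turmeric. A portion of each kidney was sequenced, and the study's methods do not name its region, which may have differed between sheep. Its RNA mixes tubule, vessel, glomerular and immune cells, so a change in the number of cells of a type and a change in RNA per cell cannot be told apart.

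Complement is a cascade of plasma proteases that tags microbes and injured cells. It starts from C1q (classical pathway), from mannose-binding lectin (lectin pathway) or from C3 with factors B and D (alternative pathway), converges on C3, and ends in a pore built from C5 to C9. Coagulation is a parallel cascade in which tissue factor and factor VII start the formation of thrombin from prothrombin, and thrombin turns fibrinogen into fibrin. Serpins and other inhibitors hold both cascades in check, and plasmin dissolves the fibrin. Hepatocytes make most of these proteins for the plasma, whereas macrophages, endothelium and kidney epithelium make some of them locally.

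A library went against its label, and the results were therefore computed without it and are given with it where it matters. In the library labelled AFB1 replicate 1 the summed FPKM (fragments per kilobase of transcript, scaled to the mapped fragments of the library) of 14 hepatocyte markers was 48810, against 413 to 1311 in the other 14 libraries. Most of the latter was HPD, an enzyme of tyrosine breakdown, at 368 to 1183 FPKM there and 1328 FPKM in AFB1 replicate 1, and the sum of the other 13 markers was 47480 against 45.4 to 127.8. The sum of 8 proximal tubule markers was 22.2 there against 1387 to 3647, and that of 9 markers of the loop and collecting duct was 17.5 against 1001 to 3012. The defining hepatocyte transcript ALB had 3190765 counts there and 0 to 2846 elsewhere. In the other 14 libraries the tubule markers were thus present in every library. Total counts were 50255295 to 68747047 per library.

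Of the 123 members, 59 had a median of at least 1 FPKM over the 14 kidney libraries and are called kidney-made here. Another 37 had a median under 1 FPKM in these libraries but reached 1 FPKM in AFB1 replicate 1, and 27 met neither condition. The share that was kidney-made varied with the role. Of the 19 first (early) complement components 16 were kidney-made, of the 8 terminal components 3, of the 21 complement regulators 7, of the 7 complement receptors 3, of the 17 procoagulant factors 10, of the 14 anticoagulants 7, of the 9 genes of fibrinolysis 4, and of the 5 protease and kinin receptors 3. The remaining 23 members carry a description that names no complement or clotting protein or is unclear, such as TARDBP, an RNA-binding protein, and 9 of them are long non-coding entries. Of these 23, 6 were kidney-made, and they are counted with the members because the annotation lists them. In all, the members held 0.331% to 0.602% of the summed FPKM of a kidney library and 8.66% of that of AFB1 replicate 1.

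**Figure D1:**
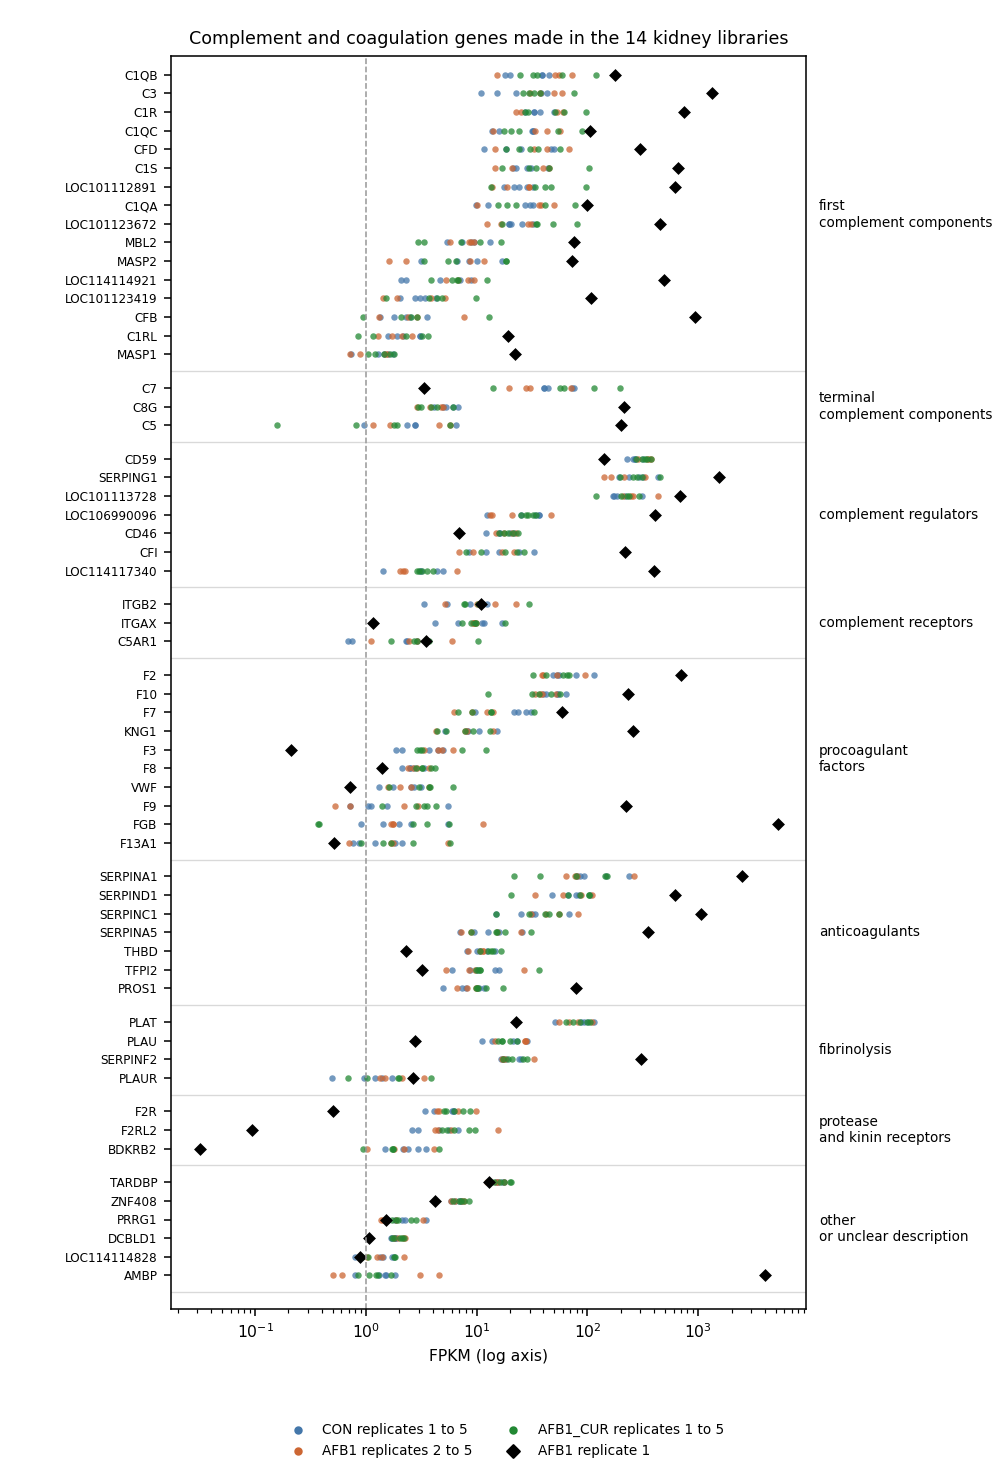
FPKM on a log axis of the 59 kidney-made members, 1 row per gene, grouped by role and ordered by the median of the 14 kidney libraries, with each library as a point and the library labelled AFB1 replicate 1 as a black diamond. The diamond lies to the right of every other point for 36 of the 59 genes, the 16 early complement components among them, and to the left of every other point for 17.

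The 3 most abundant members in the kidney libraries encode proteins that restrain complement. CD59, a membrane protein that blocks the complement pore, had the highest median at 313 FPKM and one of the smaller spreads, with a coefficient of variation (CV, SD as a percentage of the mean) of 15.0%. Next came SERPING1, the C1 inhibitor, with a median of 268 FPKM, and LOC101113728, annotated as clusterin, a chaperone that binds complement and lipids, with 223 FPKM. SERPING1 was measured at 320, 238, 194, 289 and 430 FPKM in CON, at 212, 141, 165 and 331 FPKM in AFB1 replicates 2 to 5, and at 279, 195, 256, 308 and 453 FPKM in AFB1_CUR. Clusterin was measured at 183, 312, 217, 170 and 173 FPKM in CON, at 431, 209, 259 and 246 FPKM in AFB1, and at 121, 291, 238, 202 and 229 FPKM in AFB1_CUR. The groups overlapped for both genes. Factor H (LOC106990096), the main plasma brake of the alternative pathway, had a median of 28.4 FPKM, the membrane cofactor CD46 had 18.4 FPKM, and factor I (CFI), the protease that cleaves C3b with them, had 16.4 FPKM. The seventh regulator, LOC114117340, is another factor H-like locus with 3.12 FPKM. Factor H, its relatives and both factor H loci may share sequence, which was not compared here, so reads may have been divided among them.

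The early components lay at a level near that of the regulators, with a median of 28.0 FPKM beside 28.4 FPKM. They were more uneven, with a median CV of 57.8% beside 33.9%. Their 16 medians ran from 1.45 FPKM for MASP1, a protease of the lectin pathway, to 39.0 FPKM for C1QB, a chain of C1q. The 3 chains of C1q moved together. C1QA was measured at 32.5, 30.0, 27.3, 12.8 and 9.85 FPKM in CON, at 49.5, 36.4, 37.9 and 10.01 FPKM in AFB1, and at 15.4, 76.4, 19.0, 22.8 and 41.6 FPKM in AFB1_CUR. The libraries thus spanned 9.85 to 76.4 FPKM, whereas the ratio of C1QB to C1QA stayed between 1.30 and 2.02 and that of C1QC to C1QA between 0.895 and 1.39. The 3 genes lie side by side on chromosome 2, at 243898922 to 243905798 for C1QB, 243913862 to 243918227 for C1QC and 243922415 to 243925458 for C1QA. Their partner proteases C1R and C1S, which C1q activates, had medians of 35.0 and 30.4 FPKM.

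C3, on which all 3 pathways converge, was measured at 15.4, 43.3, 22.8, 11.04 and 38.3 FPKM in CON, at 59.4, 37.6, 49.6 and 30.1 FPKM in AFB1, and at 29.6, 76.0, 33.0, 26.1 and 37.4 FPKM in AFB1_CUR. Another C3 locus, LOC114114921, had a median of 6.72 FPKM. C4 is represented by 3 loci on chromosome 20, LOC101112891 (26406304 to 26420537), LOC101123419 (26425169 to 26438096) and LOC101123672 (26444433 to 26459067), with medians of 29.0, 3.57 and 27.4 FPKM. The sequences of these loci were not compared. How any shared reads were assigned is not given in the sources used here, so the division between them is uncertain. Factor D (CFD), the protease that starts the alternative pathway, had a median of 31.6 FPKM. Factor B (CFB), its substrate, lies close by the C4 loci at 26487096 to 26493544 and had only 2.45 FPKM with a CV of 94.4%. MBL2, the mannose-binding lectin, and its protease MASP2 had 8.73 and 7.56 FPKM. C1RL, a relative of C1R, had 2.14 FPKM.

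Among the terminal components C7 stood apart. C7, which anchors the forming pore in the membrane, was measured at 75.4, 72.1, 40.2, 40.9 and 44.0 FPKM in CON, at 70.8, 27.8, 19.5 and 30.1 FPKM in AFB1, and at 13.9, 196, 61.2, 115 and 56.2 FPKM in AFB1_CUR. Its level was thus at least 13.9 FPKM in every kidney library, against 3.32 FPKM in AFB1 replicate 1. C8G, a small chain of C8, had a median of 4.57 FPKM and C5 had 2.12 FPKM. The other pore proteins C6, C8A, C8B and C9 stayed under 1 FPKM in each of the 14 kidney libraries and had 212, 38.3, 172 and 195 FPKM in AFB1 replicate 1. In every kidney library each of the other terminal components lay below the lowest C7 value.

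Of the procoagulant factors, the enzymes of the common pathway were the most abundant. F2 (prothrombin) was measured at 53.2, 55.3, 48.9, 78.9 and 114 FPKM in CON, at 39.4, 52.8, 39.1 and 94.2 FPKM in AFB1, and at 65.5, 32.0, 41.9, 60.1 and 68.3 FPKM in AFB1_CUR. F10 (factor X), which cleaves prothrombin, had a median of 40.7 FPKM, and F7 (factor VII), the partner of tissue factor, had 13.5 FPKM. F7 and F10 are neighbours on chromosome 10, at 85833884 to 85839737 and 85842052 to 85854916. Kininogen (KNG1), the precursor of bradykinin, had 8.14 FPKM, tissue factor itself (F3) 4.07 FPKM, F8 (the cofactor of factor IX) 2.87 FPKM, von Willebrand factor (VWF) 2.64 FPKM, F9 1.88 FPKM, the fibrinogen beta chain (FGB) 1.88 FPKM and the transglutaminase subunit F13A1 1.69 FPKM. The other 2 fibrinogen chains, FGA and FGG, had medians of 0.113 and 0.579 FPKM.

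The members of the anticoagulant list were also among the abundant ones. The list is a grouping made here, and a place in it does not mean that a gene acts mainly against clotting. SERPINA1 (alpha-1-antiproteinase) was measured at 81.0, 85.5, 92.3, 146 and 237 FPKM in CON, at 77.7, 263, 80.6 and 63.8 FPKM in AFB1, and at 143, 21.6, 149, 79.3 and 37.0 FPKM in AFB1_CUR. SERPIND1 (heparin cofactor II), a thrombin inhibitor, had a median of 81.0 FPKM and ranged from 20.3 FPKM in AFB1_CUR replicate 2 to 111 FPKM in AFB1 replicate 5. SERPINC1 (antithrombin) had 37.5 FPKM and SERPINA5 (protein C inhibitor) 15.1 FPKM. The endothelial receptor of thrombin THBD (thrombomodulin) had 11.4 FPKM, TFPI2 10.2 FPKM, and PROS1 (protein S, the cofactor of protein C) 10.03 FPKM. In fibrinolysis, both plasminogen activators were present without plasminogen. PLAT (tissue-type) had a median of 86.3 FPKM, PLAU (urokinase) 20.8 FPKM, the urokinase receptor PLAUR 1.44 FPKM and the plasmin inhibitor SERPINF2 18.9 FPKM, whereas plasminogen itself (PLG) stayed at or under 0.266 FPKM in every kidney library and had 431 FPKM in AFB1 replicate 1.

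The kidney-made receptors had medians of 10.2 FPKM or less. ITGB2 and ITGAX, subunits of the leukocyte receptors for cleaved C3, had medians of 10.2 and 9.61 FPKM, and the C5a receptor C5AR1 had 2.56 FPKM. The thrombin receptor F2R had 6.09 FPKM, its relative F2RL2 5.54 FPKM and the bradykinin receptor BDKRB2 1.97 FPKM. The remaining kidney-made entries were TARDBP with 15.9 FPKM, the zinc finger gene ZNF408 with 7.09 FPKM, PRRG1 with 1.91 FPKM, DCBLD1 with 1.85 FPKM, LOC114114828 with 1.38 FPKM, and AMBP, the precursor of a plasma protease inhibitor, with 1.30 FPKM.

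Kidney-made members had a higher CV over the 14 libraries than the median gene. Their median CV was 47.0% (quartiles 30.3% and 61.3%), against 19.9% (14.01% and 29.7%) over the 12723 genes with a median of at least 1 FPKM. Outside the entries of other description the median CV by role ran from 26.4% in fibrinolysis to 73.8% for the 3 terminal components. The highest of the 14 values was in AFB1_CUR replicate 2 for 23 of the 59 members (39.0%), beside 34.6% of all genes at this level, a share near that background. It held the highest value of 11 of the 16 early components, and of none of the 7 regulators.

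Immune cell markers moved with 6 of the 7 complement receptors and with the C1q chains, and not with ITGAX. The summed FPKM of 9 macrophage markers was 177 in both AFB1 replicate 2 and AFB1_CUR replicate 2, and 29.9 to 83.0 in the other kidney libraries. The sum of 7 markers of B and plasma cells was 686 in AFB1 replicate 2, 1070 in AFB1_CUR replicate 2 and 8.45 to 96.6 in the others, and without JCHAIN, a plasma cell gene that held most of it, 127, 214.5 and 2.18 to 14.3. CR2, the complement receptor of B cells, was measured at 0.0600, 0.176, 0.164, 0.0954 and 0.0186 FPKM in CON, at 3.90, 0.249, 0.0951 and 0.0680 FPKM in AFB1 replicates 2 to 5, and at 0.139, 44.8, 0.200, 0.0708 and 0.05003 FPKM in AFB1_CUR. The same 2 libraries were the highest for CR2, ITGB2, C5AR1, ITGAM, C3AR1, VSIG4 and each C1q chain, whereas they were for 17.7% of all genes with a median of at least 1 FPKM, as ITGB2, C5AR1 and the C1q chains have, and for 13.97% of genes with a median over 0 and under 1 FPKM, as the other 4 have. ITGB2, for example, was measured at 22.8 FPKM in AFB1 replicate 2 and at 30.0 FPKM in AFB1_CUR replicate 2, and at 3.37 to 14.7 FPKM in the other 12. ITGAX was at 9.26 and 9.81 FPKM in these libraries, near its median, and its 2 highest values were 18.04 FPKM in AFB1_CUR replicate 1 and 16.9 FPKM in CON replicate 2. The part of these cells in the levels was not tested.

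**Figure D2:**
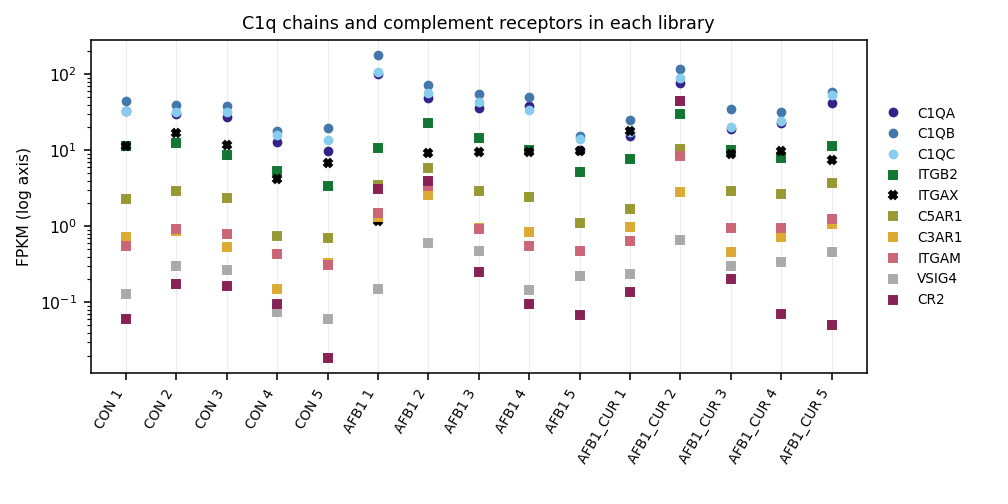
FPKM on a log axis of the C1q chains C1QA, C1QB and C1QC and of the 7 complement receptors (squares, ITGAX as crosses) in each of the 15 libraries. AFB1 replicate 2 and AFB1_CUR replicate 2 are the highest of the 14 kidney libraries for each of these genes except ITGAX, and CR2 lies at or below 0.249 FPKM in the other 12.

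The library labelled AFB1 replicate 1 was compared with the 14 others gene by gene, as a description with no test. For the 59 kidney-made members it was above every other library in 36 (61.0%) and below every other library in 17 (28.8%). Over all 12723 genes with a median of at least 1 FPKM these shares were 9.67% and 62.0%. The direction differed between roles. All 16 early components were above, among them C3 at 1320 FPKM, C1R at 748 FPKM, CFB at 939 FPKM and LOC101112891 at 613 FPKM. Also above were 5 of the 7 regulators (SERPING1 at 1544 FPKM, clusterin at 686 FPKM), 6 of the 10 procoagulant factors (FGB at 5200 FPKM, F2 at 693 FPKM) and 5 of the 7 anticoagulants (SERPINA1 at 2479 FPKM, SERPINC1 at 1066 FPKM). Below every kidney library, as for most genes of the table at this level, were CD59 at 141 FPKM, CD46 at 6.97 FPKM, THBD at 2.29 FPKM, F3 at 0.211 FPKM, VWF at 0.722 FPKM, F2R at 0.503 FPKM, F2RL2 at 0.0938 FPKM, BDKRB2 at 0.0320 FPKM and ITGAX at 1.17 FPKM. Both plasminogen activators and C7 were also below, PLAT at 22.4 FPKM, PLAU at 2.80 FPKM and C7 at 3.32 FPKM, and F8, F13A1, TFPI2, DCBLD1 and ZNF408 completed the 17.

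The 37 members that this split places in AFB1 replicate 1 included 2 of the 3 fibrinogen chains and plasminogen, and 22 of them stayed under 1 FPKM in each of the 14 other libraries. The 3 highest procoagulant factors were FGG at 3953 FPKM, FGA at 1641 FPKM and F12 (factor XII) at 132 FPKM, with F5 and the loci described as plasma kallikrein (LOC101116376), factor XI (LOC101116630) and the B chain of factor XIII (F13B) below them. The 3 highest regulators were VTN (vitronectin) at 1793 FPKM, LOC101123223 (factor H-related protein 2) at 345 FPKM and C4BPA (a chain of C4b-binding protein) at 206 FPKM. C6, C9 and C8B led the terminal components, and C2 at 262 FPKM and the lectin gene MBLA at 11.4 FPKM were the early components. A2M (alpha-2-macroglobulin) at 488 FPKM, PROC (protein C) at 364 FPKM and PROZ (protein Z) at 24.7 FPKM led the anticoagulants, and PLG at 431 FPKM and CPB2 at 52.9 FPKM led fibrinolysis. PRG4 at 17.2 FPKM, LOC132658522 at 1.56 FPKM and CFAP77 at 1.21 FPKM led the entries of other description. Below the leading members of each role, at 1.10 to 57.3 FPKM, lay the factor H-like locus LOC101114941, CFHR5 (factor H-related protein 5), LOC101120001 (described as apolipoprotein R-like), C4BPB (the beta chain of C4b-binding protein), LOC101114456 (like its alpha chain), LOC121818687 (described as protein C), LOC101104482 (described as pregnancy zone protein), the C5-like locus LOC105606523 and LOC121816776. The counts show the depth behind these values: PLG had 154130 counts in AFB1 replicate 1 and 0 to 92 in the others, and C6 47360 and 0 to 45.

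**Figure D3:**
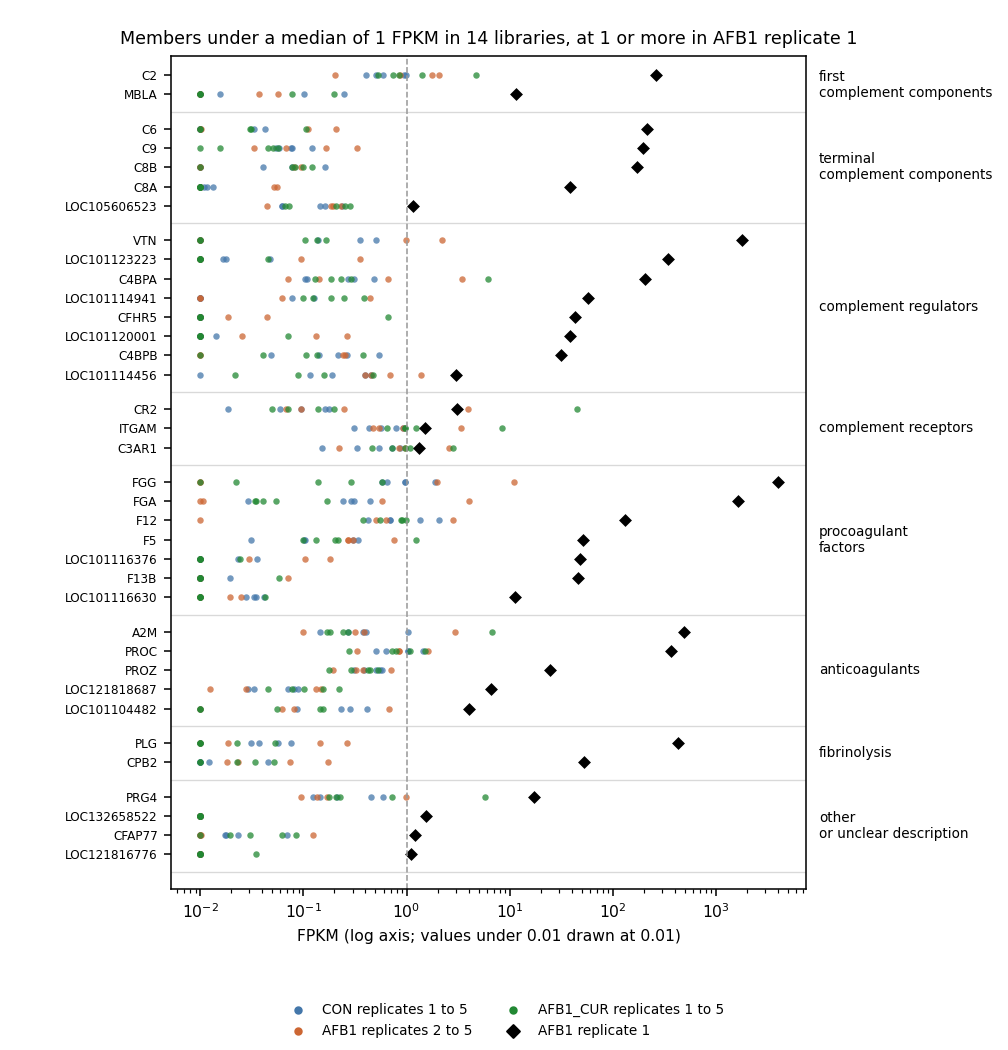
FPKM on a log axis of 36 of the 37 members with a median under 1 FPKM in 14 libraries and at least 1 FPKM in the library labelled AFB1 replicate 1 (black diamond), grouped by role, with values under 0.01 drawn at 0.01. For 28 of the 36 genes the diamond lies more than 10 times above the highest of the other 14 points, and CR2, ITGAM and C3AR1 are exceeded by kidney libraries.

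The split is less clean than its name for 15 of these members. The leukocyte receptors CR2, ITGAM and C3AR1 had 3.10, 1.51 and 1.33 FPKM in AFB1 replicate 1, below the 44.8, 8.42 and 2.81 FPKM of AFB1_CUR replicate 2. Among the 14 kidney libraries AFB1 replicate 2 held the highest value of 17 of the 37 members (45.9%) and AFB1_CUR replicate 2 of 12 (32.4%), beside 20.1% and 24.4% of the 737 genes of the table that met the same condition on level. The 12 in AFB1_CUR replicate 2 included the 3 leukocyte receptors, whereas FGG and VTN had 0 counts there, FGA 12 and ALB 102. FGA was at 4.07 FPKM, FGG at 10.9 FPKM and VTN at 2.19 FPKM in AFB1 replicate 2. That library also had the highest ALB count, 2846, followed by 1656 in AFB1 replicate 3, and AFB1 replicates 4 and 5 had 26 and 6. The condition on level itself favours AFB1 replicate 1, so the 37 members were set beside the same 737 genes. AFB1 replicate 1 exceeded every other library in 34 of the 37 (91.9%) and in 85.1% of the 737, and it did so by more than 10 times in 28 (75.7%) and in 44.8%.

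The 27 members that met neither condition were the protein C receptor PROCR, TFPI, VSIG4, CD55, CLUL1, LOC101106447, LOC105611355, LOC105614152, LOC114117339, LOC101105044, SERPINB2, LOC132659804, BDKRB1, F2RL3, CWH43, LCN12, LOC105611356, LOC114116827, LOC114116979, LOC121816233, LOC121818363, LOC121819857, LOC132657576, LOC132657754, LOC132659856, OTOG and PRSS57. Related genes outside the KEGG entry were read beside them. Properdin (CFP), which stabilises the alternative pathway enzyme, had a median of 3.23 FPKM, the endothelial receptor CD93 12.8 FPKM, and COLEC12 24.3 FPKM. HRG had 2.37 FPKM, and COLEC11 0.679 FPKM against 62.1 FPKM in AFB1 replicate 1.

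The first comparison asked which members AFB1 changed. With the 14 kidney libraries, 64 members passed the filter on low values (at least 1 FPKM in at least 4 libraries), the 59 kidney-made ones and 5 others, C2, PROC, TFPI and LOC114116827 among them. Of the 64, 1 (1.56%) passed the call rule (p under 0.05 before adjustment, with a change of over 1.5-fold), beside 1.78% of all 13394 genes tested. It was F7, which was measured at 23.4, 28.0, 9.64, 21.6 and 30.7 FPKM in CON (22.7 ± 8.13, SD, n = 5) and at 12.5, 6.196, 14.01 and 9.04 FPKM in AFB1 (10.4 ± 3.51, SD, n = 4). Of the 5 CON values, 4 lay above every AFB1 value and CON replicate 3 lay among them. Its log2 fold change was -1.12 (SE 0.46) with an unadjusted p of 0.0291 and an adjusted p of 0.957 in edgeR's quasi-likelihood test. The call ended without CON replicate 2 (-1.06), CON replicate 5 (-0.98), AFB1 replicate 3 (-0.93) or AFB1 replicate 5 (-1.10). Its neighbour F10 was measured at 50.4 ± 9.90 FPKM in CON and 40.4 ± 8.00 FPKM in AFB1, and it was not called.

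CD59 had an unadjusted p under the threshold with a change under 1.5-fold. It was measured at 270, 257, 269, 229 and 315 FPKM in CON and at 360, 342, 287 and 378 FPKM in AFB1, and the groups overlapped by the CON value of 315 and the AFB1 value of 287. The log2 fold change was 0.35 (SE 0.15), with an unadjusted p of 0.0408 and an adjusted p of 0.957. The median log2 fold change was 0.06 over the 64 members and 0.02 over all genes tested, and 36 of the 64 members were higher in AFB1. C3 was at 26.2 ± 14.1 FPKM in CON (n = 5) and 44.2 ± 12.9 FPKM in AFB1 (n = 4), and its log2 fold change of 0.76 was not called by edgeR's quasi-likelihood test (unadjusted p of 0.0548). It was called, before adjustment, by DESeq2 (0.76, unadjusted p of 0.0352, adjusted p of 0.755) and by limma (0.86, unadjusted p of 0.0433, adjusted p of 0.997). It was also called by edgeR without CON replicate 2 (0.98), CON replicate 5 (0.95), AFB1 replicate 5 (0.87) or AFB1_CUR replicate 2 (0.76). No member had groups that did not overlap, beside 1.53% of all genes.

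With all 15 libraries the same comparison called 40 of 69 members (58.0%), all of them higher in AFB1, beside 5.05% of all 13438 genes tested. By role, 16 of 17 early components, 7 of 10 anticoagulants, 6 of 12 procoagulant factors, 4 of 7 regulators, 3 of 5 genes of fibrinolysis, 2 of 3 terminal components and 1 of 5 complement receptors were called, and none of the 3 protease and kinin receptors. AMBP (log2 fold change 9.88), FGB (9.44), CFB (7.09), F9 (5.23), C3 (4.19), C8G (3.75), SERPINC1 (3.50) and F2 (1.97) were among them. For F2 the AFB1 mean behind this value joins 693 FPKM in replicate 1 with 39.1 to 94.2 FPKM in the other 4, beside 48.9 to 114 FPKM in CON. With 14 libraries the log2 fold changes of F2, F9 and C8G were -0.29, -0.28 and -0.44, and those of AMBP, FGB, CFB and SERPINC1 were 0.59, 0.67, 0.58 and 0.61, none of them called. Without AFB1 replicate 2 as well, AMBP, FGB and CFB were at -0.0030, -0.48 and -0.040. Of the 64 members in both fits 36 were called with 15 libraries and 1 with 14, and none in both. F7 changed sign, from -1.12 to 0.29. After adjustment 0 members and 0 genes were called in either fit by edgeR, with 40 members at an unadjusted p under 0.05 with 15 libraries (smallest adjusted p of 0.571) and 2 with 14.

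**Figure D4:**
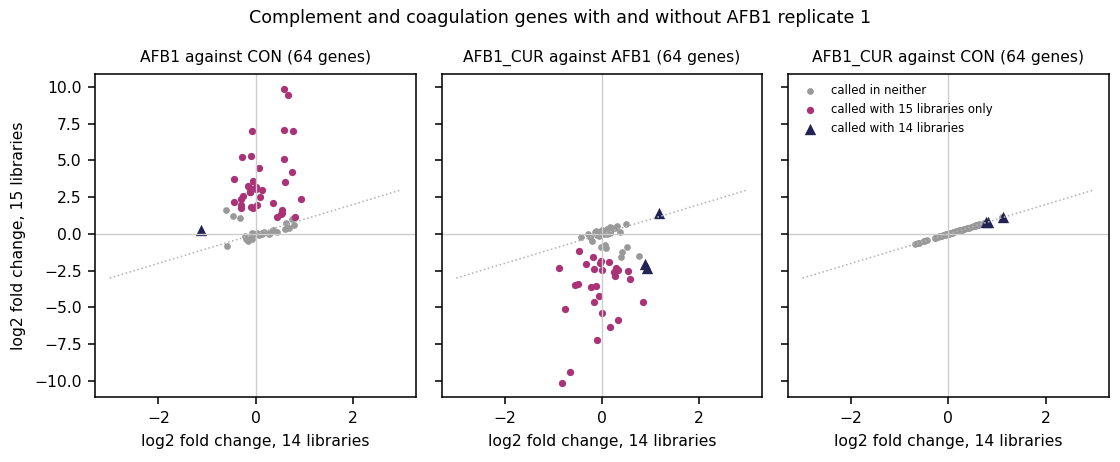
Log2 fold change of the 64 members in both fits, with 14 libraries on the horizontal axis and with all 15 on the vertical axis, in each of the 3 comparisons, with the dotted line marking equal values. In AFB1 against CON 36 genes are called with 15 libraries and not with 14, in AFB1_CUR against CON the points lie close to the line, and the 2 C4 loci in the middle panel lie above 0 on the horizontal and below 0 on the vertical axis.

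The second comparison asked which members CUR changed in sheep given AFB1. With 14 libraries 3 of 64 members (4.69%) were called, all higher in AFB1_CUR than in AFB1, beside 0.993% of all genes tested. Among the 3 were both abundant C4 loci. LOC101123672 was measured at 29.1, 30.8, 12.3 and 16.5 FPKM in AFB1 (22.2 ± 9.18, SD, n = 4) and at 17.02, 81.3, 34.4, 49.1 and 34.9 FPKM in AFB1_CUR (43.3 ± 24.1, SD, n = 5). Of the 5 AFB1_CUR values, 4 lay above every AFB1 value, and replicate 1 lay among them. The log2 fold change was 0.89 (SE 0.34), with an unadjusted p of 0.0214 and an adjusted p of 0.9999. LOC101112891 was measured at 29.7, 29.6, 13.7 and 18.7 FPKM in AFB1 and at 13.4, 97.6, 47.3, 41.7 and 33.8 FPKM in AFB1_CUR, with a log2 fold change of 0.94 (SE 0.39) and an unadjusted p of 0.0294. The 2 loci may share reads and are not independent. The third was C7, whose values are given above and whose groups overlapped widely, with a log2 fold change of 1.17 (SE 0.54) and an unadjusted p of 0.0497.

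The differences were smaller without 1 of the libraries. AFB1_CUR replicate 2 was the highest library for all 3 genes, as for 34.6% of all genes with a median of at least 1 FPKM. Among the 14 kidney libraries it had the highest B cell sum and the highest sum of 6 T cell markers (119.8). Its sums of the proximal tubule markers (1387) and of the loop and collecting duct markers (1001) were the lowest. The part of these differences in the levels was not tested. Without this library the log2 fold changes were 0.61 for LOC101123672, 0.56 for LOC101112891 and 0.74 for C7, and none was called. The C4 calls also ended without AFB1 replicate 4 (0.70 and 0.76) and AFB1 replicate 5 (0.81 and 0.89). That of C7, at the edge of the threshold, also ended without any 1 of the CON libraries (1.17 in each case) and without AFB1 replicate 3 (1.05), 4 (0.97) or 5 (1.13) or AFB1_CUR replicate 4 (1.01). In all, the C7 call ended under 14 of the 23 alternatives, limma on log2(FPKM + 1) among them (0.95). The third C4 locus, LOC101123419, was at 3.11 ± 1.74 FPKM in AFB1 and 4.87 ± 3.09 FPKM in AFB1_CUR, and it was not called. F7, lower in AFB1 than in CON, was at 33.2, 6.77, 8.99, 13.4 and 13.6 FPKM in AFB1_CUR, where 4 of the 5 values lay within the range of AFB1. The median log2 fold change of the 64 members was 0.00, as over all genes, and no member had groups that did not overlap, beside 0.679% of all genes.

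With all 15 libraries this comparison called 35 of 69 members (50.7%), beside 4.10% of all genes, 34 of them lower in AFB1_CUR and C7 higher. Of the roles, 12 of 17 early components, 7 of 12 procoagulant factors, 6 of 10 anticoagulants and 4 of 7 regulators were called lower. Both C4 loci changed sign, to -2.34 for LOC101112891 and -2.04 for LOC101123672. The members called in these first 2 comparisons share the AFB1 libraries, replicate 1 included, so the 2 lists are not separate observations. The log2 fold change of FGB, for example, was 9.44 for AFB1 against CON and -9.41 for AFB1_CUR against AFB1, and FGB was at 0.366 to 11.4 FPKM in the 14 kidney libraries and 5200 FPKM in AFB1 replicate 1.

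**Figure D5:**
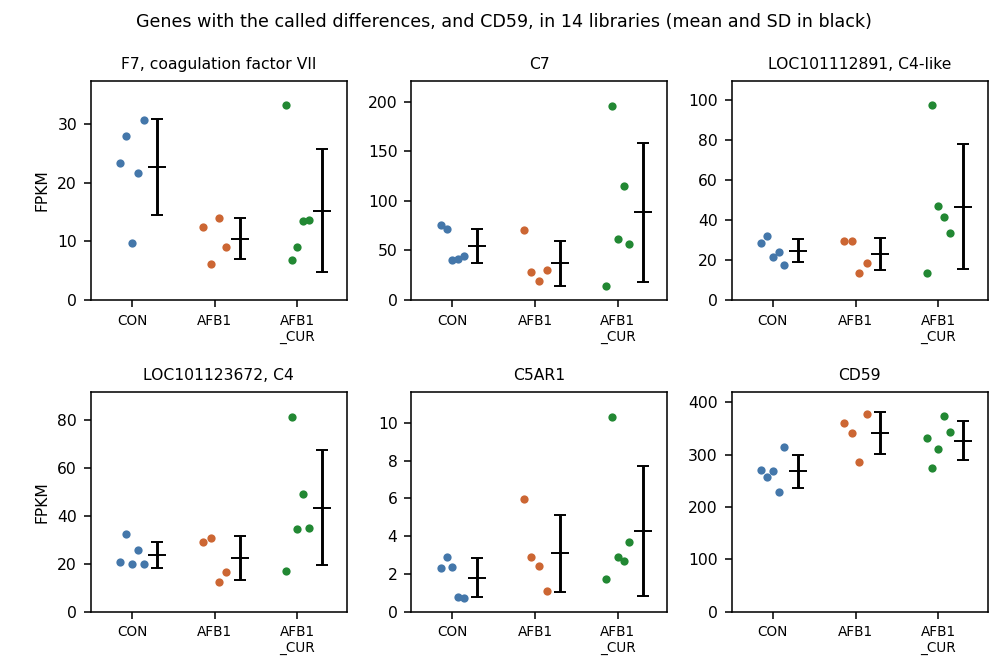
FPKM in each of the 14 kidney libraries by group for the 5 genes called in a comparison (F7, C7, LOC101112891, LOC101123672 and C5AR1) and for CD59, with the group mean and SD in black (n = 5, 4 and 5). For C7, both C4 loci and C5AR1 the highest point is AFB1_CUR replicate 2, at 196, 97.6, 81.3 and 10.3 FPKM, and the groups overlap in every panel.

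The third comparison set AFB1_CUR against CON and uses the AFB1 libraries only in the estimate of the spread, the filter on low values and the scaling between libraries. With the CON and AFB1_CUR libraries alone 1 of 61 members (1.64%) was called, LOC101123672 (0.78), beside 1.70% of all genes tested, a share near that background. With 14 libraries 3 of 64 members (4.69%) were called, all higher in AFB1_CUR, beside 1.75% of all genes tested. They were C5AR1, the receptor of the inflammatory fragment C5a, and again the 2 C4 loci. C5AR1 was measured at 2.31, 2.92, 2.34, 0.755 and 0.695 FPKM in CON (1.80 ± 1.01, SD, n = 5) and at 1.70, 10.3, 2.88, 2.69 and 3.69 FPKM in AFB1_CUR (4.25 ± 3.45, SD, n = 5). Its log2 fold change was 1.12 (SE 0.52), with an unadjusted p of 0.0498 and an adjusted p of 0.816. LOC101112891 was at 28.4, 32.1, 21.5, 24.0 and 17.7 FPKM in CON and LOC101123672 at 20.6, 32.2, 19.6, 25.6 and 19.8 FPKM, with log2 fold changes of 0.80 (SE 0.36) and 0.78 (SE 0.32) and unadjusted p values of 0.0418 and 0.0286. For both C4 loci, 4 of the 5 AFB1_CUR values lay above every CON value.

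Without AFB1_CUR replicate 2 the log2 fold changes fell to 0.58 for C5AR1, 0.43 for LOC101112891 and 0.50 for LOC101123672, and none was called. The call of C5AR1 also ended without CON replicate 1 (1.24), 3 (1.23), 4 (0.93) or 5 (0.91), AFB1 replicate 3 or 4 (1.12 in both) or AFB1_CUR replicate 5 (1.16). That of LOC101112891 ended without CON replicate 3 (0.76), 4 (0.81) or 5 (0.71) or AFB1_CUR replicate 3 (0.79) or 4 (0.82), and that of LOC101123672 without CON replicate 1 (0.74), 3 (0.72) or 5 (0.72) or AFB1_CUR replicate 4 (0.70). C8G and F8 had an unadjusted p under the threshold with smaller changes. C8G was at 5.48 ± 1.04 FPKM in CON and 4.12 ± 1.27 FPKM in AFB1_CUR, a log2 fold change of -0.50 (SE 0.21), and F8 at 2.64 ± 0.44 and 3.47 ± 0.56 FPKM, a log2 fold change of 0.32 (SE 0.13). Without CON replicate 5 and without AFB1_CUR replicate 2 the change of C8G passed both thresholds, at -0.59 and -0.63.

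Early components were on the higher side in this comparison. Of the 17 tested, 14 had a positive log2 fold change, with a median of 0.53, beside 41 of all 64 members with a median of 0.10. Over all genes 49.5% were positive, with a median of -0.00. Without AFB1_CUR replicate 2 the median of the early components was 0.17, with 13 of the 16 tested positive. C1QA then went from 0.52 to 0.10, C1QB from 0.63 to 0.20, C1S from 0.53 to 0.07, C3 from 0.54 to 0.26 and CFB from 0.74 to -0.15. The macrophage sum was 29.9 to 83.0 in CON and 53.1 to 177 in AFB1_CUR, and the sum for B and plasma cells 8.45 to 40.3 and 24.95 to 1070; their part in the levels was not tested. No member had groups that did not overlap, beside 0.732% of all genes. With all 15 libraries 1 of 69 members was called, beside 1.12% of all genes. It was ITGAM, a leukocyte integrin named here after its values were seen, at 0.603 ± 0.254 FPKM in CON and 2.45 ± 3.35 FPKM in AFB1_CUR, where replicate 2 was at 8.42 FPKM. After adjustment edgeR called 0 of the 13394 genes in any of the 3 comparisons. Before adjustment its p was under 0.05 for 670, 311 and 747 genes, with 2, 3 and 5 members among them. After adjustment DESeq2 called 19, 3 and 2 genes and 0 members.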

How the data were processed

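Kidney RNA of 15 sheep was sequenced as poly(A) libraries with a strand-marking (dUTP) protocol. Libraries were grouped by their titles, since the labels' treatment field counts upward within a group. Each library is a different sheep. For 25592 genes, the table deposited by the authors gives the reads counted in every library and the FPKM. The labels name cutadapt 1.9, HISAT2 2.2.1, StringTie 2.1.6, edgeR and DESeq2. The counting tool, its handling of shared reads and the build were not given in the sources used here. Start and end matched the RefSeq annotation of ARS-UI_Ramb_v3.0 for 24848 genes and 122 of the 123 members, so chromosome numbers were read from it by symbol.

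From the deposited counts, edgeR 4.0.16 (R 4.3.3; TMM, quasi-likelihood test, 1 estimate of the spread for 3 groups, no covariate) was fitted without AFB1 replicate 1 to the 13394 genes that reached 1 FPKM in 4 or more libraries. The call rule was a p under 0.05 with a change of over 1.5-fold, the thresholds of the study's methods, which do not say whether p was adjusted, and p before adjustment was used here. Benjamini-Hochberg adjustment ran over all genes tested. Levels are FPKM as deposited. Alternatives were all 15 libraries, the 2 groups alone, RLE size factors, no filter and a filter at 5 FPKM, DESeq2 1.42.0, limma 3.58.1 on log2(FPKM + 1) and log2(FPKM + 0.1), the replicate number as a block, and each library left out. The fit was also run on simulated counts that gave every gene the same spread. The changes set there were larger than those called with 14 libraries, so that run does not measure how well such changes are found in these data. The members and lists were chosen with earlier results of these data known, and members outside the lists were placed by their description afterwards. Text gives each kidney-made member called in a comparison with 14 or 15 libraries, the 3 most abundant kidney-made members of each role, the 3 highest per role of those placed in AFB1 replicate 1, and by name the rest. Precision of the counts rests on 50255295 to 68747047 counts per library. The values of 1 member are not reported here, although it stays in the counts and tests.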

Additional observations from a re-analysis of the deposited data

Results flagged for a closer look

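In the groups of 4 or 5 libraries, a gap test on the highest or lowest library (Dixon's test, critical values 0.829 for 4 and 0.71 for 5 libraries) was run on 57 groups of members' FPKM values, where chance marks about 1 in 20, and on the summed FPKM of the members in AFB1. The sum was 36340 in the library labelled AFB1 replicate 1 and 1675 to 2325 in the other 4 AFB1 libraries. AFB1_CUR replicate 2 stood apart in its group at 76.03 FPKM for C3, 10.3 for C5AR1, 12.89 for CFB and 44.85 for CR2. AFB1 replicate 2 stood apart for CR2 at 3.903 FPKM and AFB1 replicate 3 for SERPINA1 at 263.2 FPKM. AFB1_CUR replicate 1 stood apart for F7 at 33.21 FPKM, against 6.77 to 13.6 FPKM in the rest of its group.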

How the results depend on the processing

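Members called with 14 libraries numbered 1 for AFB1 against CON, 3 for AFB1_CUR against AFB1 and 3 for AFB1_CUR against CON. In that order the counts were 40, 35 and 1 of 69 with all 15 libraries (beside 5.05%, 4.10% and 1.12% of all genes). With only the 2 groups compared they were 2, 1 and 1 of 60 to 61 (3.33%, 1.64% and 1.64%, beside 2.09%, 0.883% and 1.70%). They were 6, 8 and 9 of 120 with no filter on low values (5.00%, 6.67% and 7.5%, beside 3.41%, 2.78% and 3.65% of all genes), and 1, 2 and 2 of 41 with the filter at 5 FPKM (beside 1.21%, 0.630% and 0.939%). Of the 64 members, they were 2, 3 and 3 with DESeq2 (3.13%, 4.69% and 4.69%, beside 2.14%, 1.23% and 2.07% of all genes). With limma at either pseudocount they were 2, 1 and 0 (3.13%, 1.56% and 0%). The limma shares of all genes were 0.806%, 0.642% and 0.612% at a pseudocount of 1, and 1.55%, 1.083% and 1.38% at 0.1. With RLE size factors the counts of members were 1, 3 and 3 (1.56%, 4.69% and 4.69%, beside 1.78%, 0.986% and 1.77% of all genes). Leaving out each library gave 0 to 5, 1 to 5 and 0 to 7. For AFB1 against CON the count was 0 without AFB1 replicate 3 (beside 2.05% of all genes) and 3 without CON replicate 2 (4.76%, beside 2.01%). It was 5 without AFB1 replicate 5 (7.81%, beside 3.51%). Without CON replicate 5, AFB1 replicate 2 or 4 or AFB1_CUR replicate 2 it was 2 (3.13% to 3.23%, beside 1.71% to 2.32%). For AFB1_CUR against AFB1 it was 5 without AFB1 replicate 2 (7.94%, beside 2.07%) or AFB1_CUR replicate 1 (7.81%, beside 1.05%). It was 1 without AFB1 replicate 4 (1.56%, beside 0.975%) or AFB1_CUR replicate 2 (1.61%, beside 1.56%). For AFB1_CUR against CON it was 7 without AFB1_CUR replicate 1 (10.9%, beside 2.48%) and 0 without CON replicate 3 (beside 1.69%). It was 1 without CON replicate 4 (1.56%, beside 1.32%) or AFB1_CUR replicate 2 (1.61%, beside 0.988%). C3, not called for AFB1 against CON, was called under 9 of the 22 other settings with AFB1 replicate 1 left out. With all 15 libraries the sign reversed for F7 in AFB1 against CON (0.29) and for LOC101112891 (-2.34) and LOC101123672 (-2.04) in AFB1_CUR against AFB1; the other 7 changes with an unadjusted p under 0.05 kept their direction under each alternative run. Of the further members given with 15 libraries, F2 (1.97), F9 (5.23) and C8G (3.75) reversed against their 14-library values, F9 also without CON replicate 5 (0.55) or AFB1 replicate 4 (0.0099), in a range of -0.85 to 0.55 over the libraries left out. Without AFB1 replicate 2, another 3 of these members reversed for AFB1 against CON, AMBP to -0.0030 (range -0.0030 to 0.92), FGB to -0.48 (range -0.48 to 1.21) and CFB to -0.040 (range -0.040 to 0.84), and FGB to 0.49 for AFB1_CUR against AFB1 (range -1.22 to 0.49). The cause of these changes was not tested. The same-numbered libraries share only a number: the correlations of their deviations from the group means ran from -0.31 to 0.60 over 13 pairs. With the number as a replicate block the counts were 3, 4 and 5 (4.69%, 6.25% and 7.81%, beside 1.78%, 1.18% and 2.24% of all genes). A floor of 0.5 or 2 FPKM in place of 1 gave 68 and 49 kidney-made members and 32 and 36 placed in AFB1 replicate 1. No member passed adjustment under any of these settings.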
